A study of Mus musculus with 9 samples.

Results

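Activating transcription factor 4 (ATF4) target genes and aminoacyl-tRNA synthetase genes were followed across mouse bone marrow cells transduced with NRASG12D, with NUP98-NSD1, or with both. The genes were chosen by name and comprised 34 of the 55274 gene identifiers in each library, 18 that encode synthetases of the cytosol and 16 that encode transcription factors, stress regulators, and enzymes of asparagine, serine, folate, and proline metabolism. All 34 were found, and all 34 were among the 13493 genes that passed the filter on low values. NRASG12D is a mutant RAS GTPase that stays active, and NUP98-NSD1 is a leukemia fusion of the nucleoporin NUP98 with NSD1, an enzyme that methylates histones. Each group held 3 RNA-seq libraries. The cells of every group came from bone marrow of young adult female C57BL/6J mice treated with 5-fluorouracil at 150 mg/kg 4 days before harvest, and were stimulated for 48 h with hIL-6 at 10 ng/mL, mIL-3 at 6 ng/mL, and mSCF at 20 ng/mL. They were then transduced with retroviral MSCV vectors, in which the viral promoter drives the transgene together with GFP for NUP98-NSD1 and BFP for NRASG12D, sorted by fluorescence, and expanded in culture. No untransduced or empty-vector cells were in the series, so each group could be compared only with another transduced group. The sources do not say whether the libraries of a group came from separate animals or cultures, so p-values measure the spread between these libraries, which may be technical.

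Cells that run short of amino acids or accumulate unfolded proteins phosphorylate the translation initiation factor eIF2, which lowers protein synthesis but favors translation of the ATF4 mRNA. ATF4 then binds, often together with C/EBP proteins, to a short DNA element and raises genes for amino acid synthesis and uptake, for the synthetases that load amino acids onto tRNA, and for stress regulators such as the factors CHOP and ATF3 and the inhibitor TRIB3. Because ATF4 is controlled largely at translation, its mRNA is an incomplete guide to its activity, and the mRNA of its targets is commonly read in its place.

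The estimated depth was 22400000 to 35400000 fragments per library. Nras had 348 to 479 FPKM in the NRASG12D libraries, 47.7 to 51.2 in the NUP98-NSD1 libraries, and 245 to 701 in the NUP98-NSD1+NRASG12D libraries, where transcripts of the vector and of the mouse gene cannot be told apart. The groups also differed in markers of cell type. The 10 mast cell markers summed to 29660 to 32200 FPKM in NRASG12D cells, 26500 to 31390 FPKM in NUP98-NSD1 cells, and 739 to 4287 FPKM in NUP98-NSD1+NRASG12D cells. The mast cell carboxypeptidase gene Cpa3 was listed at 0 in all 3 NRASG12D libraries, which can be a failed estimate, and without it the other 9 markers summed to 13380 to 17020 FPKM in NUP98-NSD1 and 459 to 2466 FPKM in NUP98-NSD1+NRASG12D cells. Set against NRASG12D cells, NUP98-NSD1 cells had 5 of the 10 mast cell markers called lower and 3 higher by the limma test described below. Among all tested genes 9.98% were called lower and 42.2% higher. The 3 higher markers included Cpa3, whose listed 0 may be a failed estimate. The median log2 fold change of the 10 markers was -0.77. With libraries scaled by median ratios, 7 markers were called lower and 3 higher, against 23.3% and 22.7% of all genes. The 10 granulocyte markers gave, in the same order of groups, 26.6 to 34.4, 1733 to 6155, and 8944 to 19540 FPKM, with Ltf, Camp, and Fcnb listed at 0 in the first group. For the 8 macrophage and monocyte markers, these sums were 48.6 to 135, 1423 to 1932, and 4202 to 11870 FPKM. Markers of other lineages were also summed in this order of groups. The 5 erythroid markers gave 1.43 to 3.03, 21.4 to 47.2, and 3.08 to 29.6 FPKM, the 5 megakaryocyte markers 479.5 to 563, 242 to 301, and 81.1 to 1242 FPKM, and the 6 lymphoid markers 0.0920 to 0.406, 29.9 to 153, and 8.37 to 306 FPKM. The megakaryocyte sums of the first 2 groups were mostly Itga2b, and the other 4 markers gave 0.70 to 5.56, 25.2 to 37.2, and 69.4 to 1192 FPKM. The study describes the NRASG12D cultures as mostly mast cells, and no sequencing batch is named. The part of these cell type differences in the results for the members was not tested, and in bulk RNA fewer cells of a type cannot be told apart from less RNA per cell. The deposited FPKM also placed most genes higher in both groups that carry NUP98-NSD1. Over all tested genes, the median log2 fold change against NRASG12D cells was 0.27 in NUP98-NSD1 cells and 0.23 in the cells with both transgenes, and became -0.013 and 0.025 after the libraries were scaled by median ratios. For the cells with both transgenes against NUP98-NSD1 cells the median was -0.059. Many members are therefore also described relative to this shift, and where no scaling is named the values are those of the deposited FPKM.

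The promoters of the members are shown first, since ATF4 acts through a defined DNA element. RefSeq promoter sequences on GRCm38.p6, from 250 bases before to 50 bases after the start site, were available for 26 of the 34 members, and the others were Cars, Hars, Lars, Nars, Rars, Vars, Wars, and Cth. The C/EBP-ATF response element was searched as TGATGNAA, where N is any base, on both strands (TTNCATCA when read on the other strand). It was found in 10 of these 26 members (38.5%) and in 3.97% of all 32851 promoters in the table. A member was counted by gene, also where it had more than 1 promoter, while the share of all was counted by promoter. The members were listed as ATF4 targets and synthetases to begin with, so the contrast is a description and not a test. The members with a match were the synthetase genes Aars, Gars, Iars, Tars, and Yars and the genes Atf3, Chac1, Trib3, Asns, and Pycr1. Their matches began between base -193 (Chac1) and base 15 (Trib3), counted from the start site as base 1. A match from each of the synthetase genes and from Atf3, Chac1, Trib3, and Asns, whose levels are described below, is shown with 11 bases on each side, read along the strand of the gene and with the match in capitals.
Aars, chr8:111033840-111033869, plus strand: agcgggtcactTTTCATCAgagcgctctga
Gars, chr6:55037960-55037989, plus strand: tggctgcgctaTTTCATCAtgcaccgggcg
Iars, chr13:49682126-49682155, plus strand: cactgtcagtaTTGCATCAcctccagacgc
Tars, chr15:11399655-11399684, minus strand: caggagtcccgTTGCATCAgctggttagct
Yars, chr4:129189895-129189924, plus strand: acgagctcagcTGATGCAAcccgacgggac
Atf3, chr1:191183425-191183454, minus strand: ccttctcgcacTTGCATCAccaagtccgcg
Chac1, chr2:119351038-119351067, plus strand: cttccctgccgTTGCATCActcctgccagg
Trib3, chr2:152344028-152344057, minus strand: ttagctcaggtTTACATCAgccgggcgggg
Asns, chr6:7693214-7693243, minus strand: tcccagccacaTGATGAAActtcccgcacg

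Dars and Phgdh had no match. They are the synthetase and the serine pathway gene with the largest log2 fold changes in NUP98-NSD1 cells, and the 250 bases before their start sites are shown for comparison. Capitals in the Phgdh sequence mark CCAAT, the box bound by the factor NF-Y, which was found on either strand in 37.4% of all promoters and not in that of Dars.
Dars, chr1:128417417-128417666, minus strand: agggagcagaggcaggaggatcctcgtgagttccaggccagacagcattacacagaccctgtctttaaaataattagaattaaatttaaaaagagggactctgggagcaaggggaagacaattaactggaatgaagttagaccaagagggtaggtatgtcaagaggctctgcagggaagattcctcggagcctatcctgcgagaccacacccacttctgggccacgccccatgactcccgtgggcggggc
Phgdh, chr3:98339970-98340219, minus strand: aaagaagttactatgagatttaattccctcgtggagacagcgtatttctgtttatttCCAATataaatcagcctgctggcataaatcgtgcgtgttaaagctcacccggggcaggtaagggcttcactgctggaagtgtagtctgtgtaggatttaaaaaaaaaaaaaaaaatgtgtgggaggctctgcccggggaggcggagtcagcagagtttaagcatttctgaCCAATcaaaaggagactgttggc

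Taken as a list, the synthetase genes lay near the shift of all genes. Their mean log2(FPKM + 1) was 5.83 ± 0.036 (SD, n = 3) in NRASG12D, 6.20 ± 0.074 (SD, n = 3) in NUP98-NSD1, and 6.11 ± 0.28 (SD, n = 3) in NUP98-NSD1+NRASG12D cells. The means of NUP98-NSD1 and NRASG12D cells differed by 0.36, and by 0.029 after median-ratio scaling. Members were tested with limma on the log2(FPKM + 1) scale, and a gene was called when its p, adjusted by Benjamini-Hochberg across the tested genes, was under 0.05. In NUP98-NSD1 cells 8 of 18 synthetase genes were higher and 0 lower than in NRASG12D cells. These 8 are 44.4% of the list, against 42.2% of all tested genes called higher and 9.98% called lower. The median log2 fold change was 0.22 over the list and 0.27 over all genes. After median-ratio scaling, 5 synthetase genes were higher (27.8%, against 22.7% of all genes) and 2 lower (11.1%, against 23.3% of all genes). Its members spanned log2 fold changes from -0.010 to 0.84, while the quartiles of all tested genes were at -0.035 and 0.61.

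**Figure D1:**
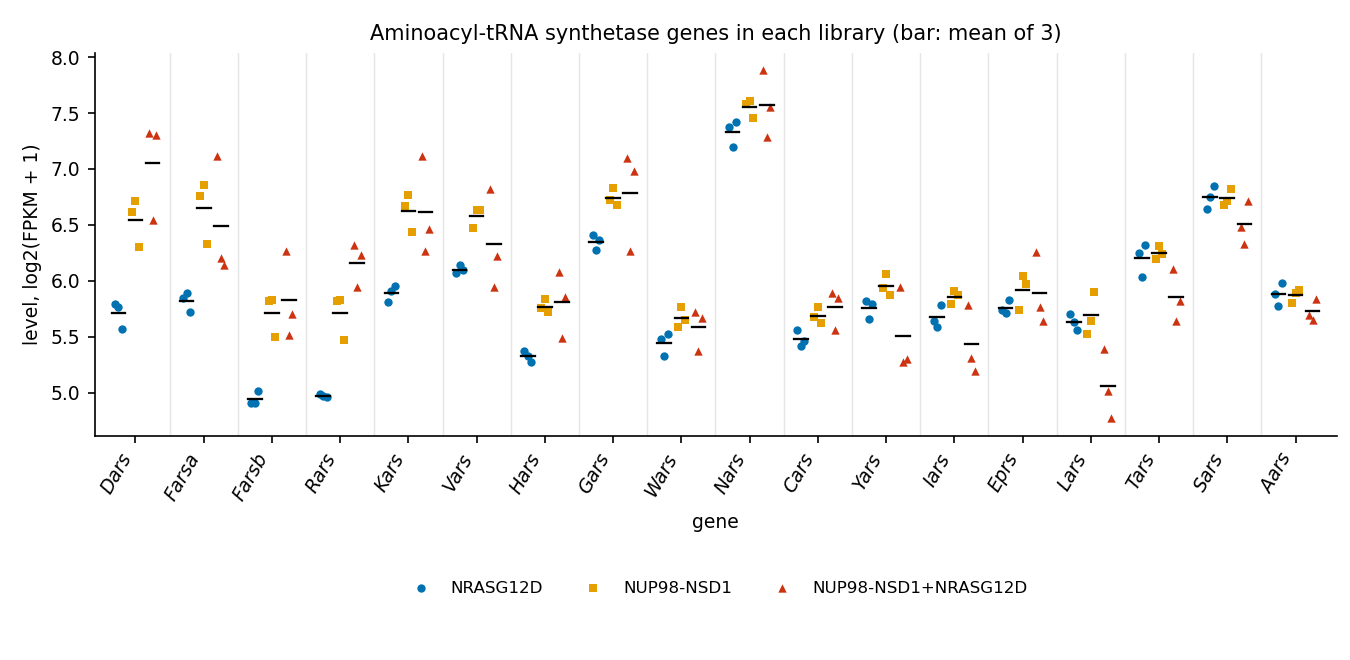
Level of each synthetase gene in the 9 libraries as log2(FPKM + 1), with genes ordered by their difference between NUP98-NSD1 and NRASG12D cells and bars at the mean of 3 libraries. Dars, Farsa, Farsb, Rars, Kars, Hars, and Cars were above the NRASG12D libraries in all 6 other libraries. For Aars at the right end all 9 libraries lay between 49.2 and 62.1 FPKM. Of the 18 genes, 13 lay wholly above the NRASG12D libraries in NUP98-NSD1 cells and 7 in NUP98-NSD1+NRASG12D cells. Among all 13493 tested genes, 6840 and 5223 did so, and such separation is therefore common in these data.

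Dars, Rars, Kars, and both subunits of the phenylalanine enzyme formed the upper end. Dars (ENSMUSG00000026356.15, chromosome 1 from 128363707 to 128417368 of GRCm38, minus strand), which encodes aspartyl-tRNA synthetase, had 54.3, 53.5, and 46.4 FPKM in the NRASG12D libraries, 97.0, 104, and 78.0 FPKM in the NUP98-NSD1 libraries, and 159, 92.4, and 157 FPKM in the NUP98-NSD1+NRASG12D libraries. All 6 libraries with NUP98-NSD1 were above all 3 without it. The log2 fold change against NRASG12D cells was 0.84 (standard error 0.13, limma adjusted p = 0.00247) in NUP98-NSD1 and 1.35 (standard error 0.24, limma adjusted p = 0.00486) in NUP98-NSD1+NRASG12D cells, or 0.50 and 1.11 after median-ratio scaling. Rars (ENSMUSG00000018848.4, chromosome 11 from 35808381 to 35834506, minus strand), the arginyl-tRNA synthetase gene, had 30.7, 30.4, and 30.1 FPKM in NRASG12D, 55.6, 55.9, and 43.3 FPKM in NUP98-NSD1, and 78.7, 60.4, and 74.1 FPKM in NUP98-NSD1+NRASG12D libraries. Its 3 groups did not overlap at all. The log2 fold change was 0.73 (standard error 0.11, limma adjusted p = 0.00261) in NUP98-NSD1 and 1.19 (standard error 0.15, limma adjusted p = 0.00126) in NUP98-NSD1+NRASG12D cells. These comparisons share the NRASG12D libraries and are not independent. Both genes stayed past the threshold in both comparisons when any library was left out and under all 7 other settings tried.

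Kars (ENSMUSG00000031948.14, chromosome 8 from 111993443 to 112011323, minus strand), which encodes lysyl-tRNA synthetase, had 55.3, 58.9, and 61.1 FPKM in NRASG12D, 101, 108, and 85.8 FPKM in NUP98-NSD1, and 138, 75.9, and 87.3 FPKM in NUP98-NSD1+NRASG12D libraries. It was higher in NUP98-NSD1 cells by a log2 fold change of 0.73 (limma adjusted p = 0.00198). Where both transgenes were present, the value was 0.72 (limma adjusted p = 0.0462), and this call was lost after median-ratio scaling (limma adjusted p = 0.0551) and when any NRASG12D library or NUP98-NSD1+NRASG12D replicate 3 was left out (limma adjusted p up to 0.140). Farsa (ENSMUSG00000003808.18, chromosome 8 from 84856989 to 84869257) and Farsb (ENSMUSG00000026245.16, chromosome 1 from 78417975 to 78488897), the alpha and beta subunits of phenylalanyl-tRNA synthetase, were both above the NRASG12D range in every other library. Farsa had 51.7 to 58.3 FPKM in NRASG12D, 79.6 to 115 FPKM in NUP98-NSD1, and 137, 72.8, and 69.8 FPKM in NUP98-NSD1+NRASG12D libraries. Farsb had 28.9 to 31.3 FPKM in NRASG12D, 44.1 to 55.6 FPKM in NUP98-NSD1, and 75.8, 44.7, and 50.9 FPKM in NUP98-NSD1+NRASG12D libraries. Their log2 fold changes in NUP98-NSD1 cells were 0.83 and 0.77 (limma adjusted p = 0.00381 and 0.00210). In the cells with both transgenes they were 0.67 and 0.88, of which that of Farsb passed (limma adjusted p = 0.0172) and that of Farsa did not (limma adjusted p = 0.0888). The Farsb call was lost when any NRASG12D library was left out, with limma adjusted p-values from 0.0571 to 0.0664. Of the 50-base stretches of Farsb, 7.28% also occur in other genes, the most in the overlapping gene Sgpp2, which had at most 0.0206 FPKM in any library.

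Gars, Hars, and Vars, for the glycine, histidine, and valine enzymes, lay near the shift of all genes. Gars had 76.4 to 83.9 FPKM in NRASG12D and 102 to 113 FPKM in NUP98-NSD1 libraries. Hars had 37.7 to 40.4 and 51.7 to 56.1 FPKM, with 43.9 to 66.4 FPKM in NUP98-NSD1+NRASG12D libraries, and Vars had 66.1 to 69.4 and 87.8 to 98.5 FPKM in NRASG12D and NUP98-NSD1 libraries. Each was called higher in NUP98-NSD1 cells, with log2 fold changes of 0.40, 0.45, and 0.48 (limma adjusted p = 0.00619, 0.00355, and 0.00326). After median-ratio scaling the values were 0.063, 0.11, and 0.15, and none of the 3 passed (limma adjusted p = 0.532, 0.191, and 0.218). Of the 50-base stretches of Hars, 5.95% also occur in other genes, the most in Hars2, its mitochondrial relative, which had 11.7 to 17.3 FPKM over all libraries.

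The other 10 synthetase genes had no call in NUP98-NSD1 cells with the deposited values. Nars, the asparagine enzyme, had the highest mean of the list in every group, with 146 to 171 FPKM in NRASG12D, 175 to 195 FPKM in NUP98-NSD1, and 155 to 235 FPKM in NUP98-NSD1+NRASG12D libraries. Log2 fold changes of 0.16 to 0.22 were measured in NUP98-NSD1 cells for Wars, Nars, Cars, Yars, Iars, and Eprs, the enzymes for tryptophan, asparagine, cysteine, tyrosine, isoleucine, and for glutamate and proline together. These values lie just under the median of all genes, and all 6 turned negative after median-ratio scaling or quantile normalization. Without NUP98-NSD1 replicate 3, Cars, Nars, and Yars were called higher with the deposited values (limma adjusted p = 0.0348, 0.0373, and 0.0471). For Lars, Tars, Sars, and Aars, which charge tRNA with leucine, threonine, serine, and alanine, the values were 0.060, 0.046, -0.0085, and -0.010. Aars (ENSMUSG00000031960.14, chromosome 8 from 111033144 to 111057664) had 58.1, 53.9, and 62.1 FPKM in NRASG12D, 54.7, 58.3, and 59.6 FPKM in NUP98-NSD1, and 50.7, 49.2, and 56.3 FPKM in NUP98-NSD1+NRASG12D libraries. Sars (ENSMUSG00000068739.13, chromosome 3 from 108424865 to 108445209) had 99.1 to 114 FPKM in NRASG12D, 101 to 112 FPKM in NUP98-NSD1, and 79.2 to 104 FPKM in NUP98-NSD1+NRASG12D libraries. The first 2 groups overlapped in both genes. Relative to the shift of all genes they were lower, at -0.34 each after median-ratio scaling (limma adjusted p = 0.0363 for Aars and 0.0360 for Sars), a call that the deposited values did not give (limma adjusted p = 0.928 and 0.941). Aars overlaps Exosc6 on the same strand, and 13.8% of its 50-base stretches are shared with other genes, the most with Exosc6. Exosc6 was listed at no more than 2.03e-23 FPKM in any library, and whether its reads were counted in Aars was not tested.

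Of the 18 synthetase genes, 4 were called higher and 1 lower in NUP98-NSD1+NRASG12D than in NRASG12D cells, where 24.2% of all tested genes were called higher and 14.1% lower. These 5 were Dars, Rars, Kars, and Farsb, given above, and Lars. Lars, for leucyl-tRNA synthetase, had 51.0, 48.5, and 46.1 FPKM in NRASG12D, 45.0, 49.0, and 58.8 FPKM in NUP98-NSD1, and 41.0, 31.3, and 26.3 FPKM in NUP98-NSD1+NRASG12D libraries. Its 3 libraries with both transgenes were the lowest of the 9. The log2 fold change against NRASG12D cells was -0.57 (limma adjusted p = 0.0487) with the deposited values and -0.80 (limma adjusted p = 0.00501) after median-ratio scaling. The first call was lost when any NRASG12D library or NUP98-NSD1+NRASG12D replicate 2 or 3 was left out, with limma adjusted p-values from 0.0800 to 0.155. After median-ratio scaling 3 synthetase genes were higher and 4 lower, against 19.8% and 19.1% of all genes. Tars, Iars, and Yars then joined Lars among the lower genes, at -0.58, -0.47, and -0.49 (limma adjusted p = 0.0175, 0.0388, and 0.0425). With the deposited values these 3 were at -0.35, -0.24, and -0.25 and did not pass (limma adjusted p = 0.1505, 0.338, and 0.365), except when NUP98-NSD1+NRASG12D replicate 1 was left out (limma adjusted p = 0.0375, 0.0310, and 0.0166). Of the 50-base stretches of Iars, 7.15% occur in other genes, the most in Gm4849.

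A ratio of 2 genes within a library does not depend on how libraries are scaled. The pair of Dars and Lars was chosen after their values were seen, so the ratio is a description. Dars over Lars was 1.07, 1.104, and 1.01 in the NRASG12D libraries, 2.16, 2.12, and 1.33 in the NUP98-NSD1 libraries, and 3.87, 2.95, and 5.95 in the NUP98-NSD1+NRASG12D libraries. The groups followed each other without overlap, and NUP98-NSD1 replicate 3 was nearest to the NRASG12D cells. Both enzymes belong to the multi-synthetase complex, a particle that holds several synthetases together with scaffold proteins. Its members in the list lay on both sides of the all-gene shift, with Dars, Kars, and Rars above it and Eprs, Iars, and Lars under it in both comparisons with NRASG12D cells. Of 6 further genes of the cytosolic system, the enzymes Mars, Qars, and Tarsl2 and the scaffold proteins Aimp1, Aimp2, and Eef1e1, 5 were higher and 0 lower in NUP98-NSD1 cells (median log2 fold change 0.55, with 42.2% of all genes called higher) and 2 higher and 0 lower in cells with both transgenes. The largest differences in NUP98-NSD1 cells were those of Aimp2 and Eef1e1, at 0.73 and 0.70 (limma adjusted p = 0.00261 and 0.0213). The call of Eef1e1 held in 2 of 6 fits that left out a library and was lost after median-ratio scaling (limma adjusted p = 0.0938). For the cells with both transgenes, 24.2% of all genes were called higher with the deposited values. After median-ratio scaling, 2 of the 6 were higher in each comparison, with 22.7% and 19.8% of all genes called higher.

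The 17 synthetase genes of the mitochondrion, which charge the tRNAs of the organelle, were also counted. In NUP98-NSD1 cells 13 were higher and 0 lower, where 42.2% and 9.98% of all tested genes were called, with a median log2 fold change of 0.54 against 0.27 for all genes, and 8 were higher and 0 lower after median-ratio scaling (22.7% and 23.3% of all genes). Yars2 and Sars2, for the tyrosine and serine enzymes of the mitochondrion, led with 1.07 and 0.88 (limma adjusted p = 0.00405 and 0.00157). Cytosolic Sars was at -0.0085 in the same comparison. Where both transgenes were present, 2 of the 17 were higher and 0 lower, against 24.2% and 14.1% of all genes.

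The promoter element described above was set beside these differences. The 5 synthetase genes with a match had a median log2 fold change of 0.19 in NUP98-NSD1 cells, in a range of -0.010 to 0.40, and 1 of them, Gars, was called. The 6 synthetase genes whose promoter held no match, which were Dars, Eprs, Farsa, Farsb, Kars, and Sars, had a median of 0.75 in a range of -0.0085 to 0.84, and 4 were called higher. In the cells with both transgenes the medians were -0.24 with and 0.70 without a match. Sars and Eprs, without a match, lay in the range of the genes with one. Among all tested genes with a listed promoter, 250 held a match and had a median of 0.25, and the other 8750 had a median of 0.24 in NUP98-NSD1 cells. In that comparison 103 of the 250 and 3609 of the 8750 were called higher, beside 42.2% of all tested genes. Among the 16 other members, the 5 genes with a match had a median of 0.44 in NUP98-NSD1 cells, in a range of -1.115 to 2.52. The 10 without one had a median of 0.14 in a range of -0.65 to 2.00. In the cells with both transgenes their medians were 0.016 with and 0.054 without a match. These medians are descriptions of few genes, and a match in the sequence is not a measurement of binding.

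**Figure D2:**
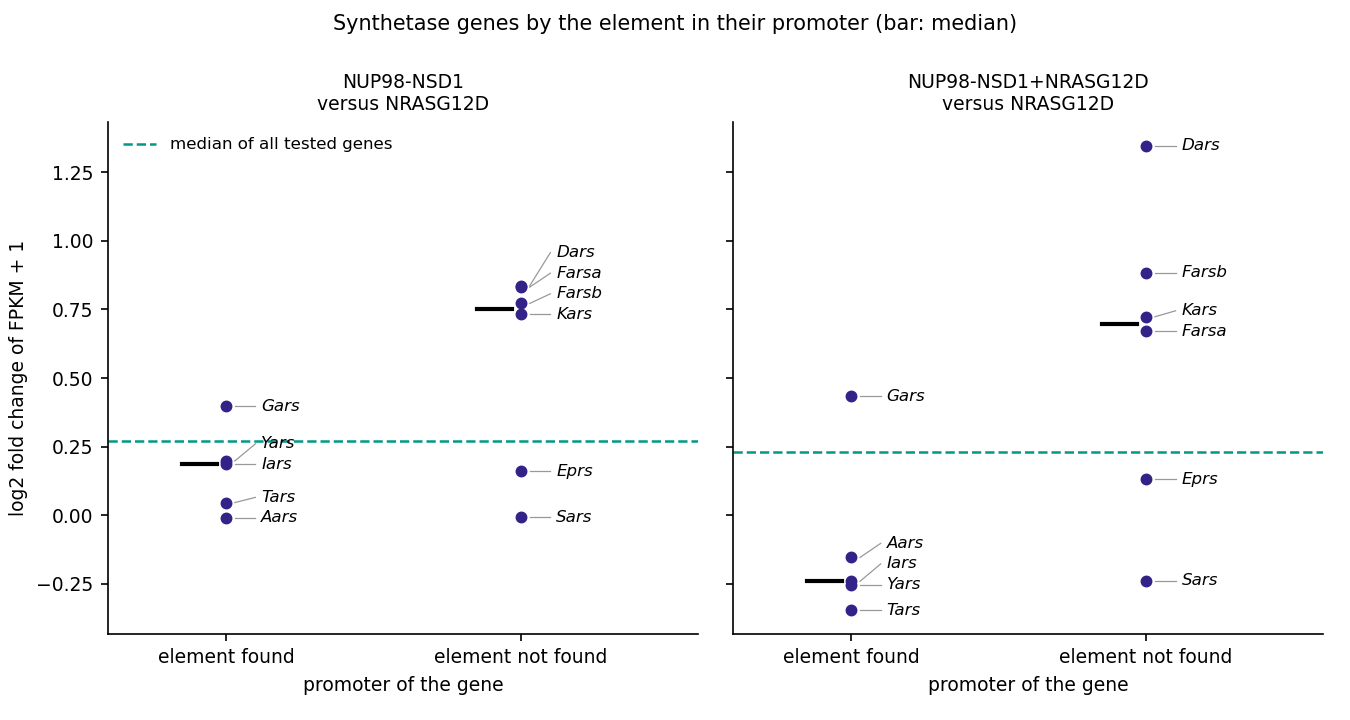
Log2 fold change of the 11 synthetase genes with a listed promoter, separated by whether the promoter held the C/EBP-ATF element, for both comparisons with NRASG12D cells. Short bars are medians (0.19 with and 0.75 without a match on the left, -0.24 and 0.70 on the right) and the dashed line is the median of all tested genes.

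Atf3 was the member with the largest difference in every comparison. It encodes a stress-induced factor of the same family as ATF4 and lies on chromosome 1 from 191170296 to 191218039, minus strand (ENSMUSG00000026628.13). It had 0.24, 0.68, and 0.32 FPKM in the NRASG12D libraries, 6.69, 6.57, and 7.96 FPKM in the NUP98-NSD1 libraries, and 39.5, 58.2, and 27 FPKM in the NUP98-NSD1+NRASG12D libraries. The groups formed 3 separate steps. The ratio of mean FPKM to NRASG12D cells was 17.1 in NUP98-NSD1 and 100.5 in NUP98-NSD1+NRASG12D cells. On the log2(FPKM + 1) scale, which understates changes of low genes, the fold change was 2.52 (standard error 0.15, limma adjusted p = 0.000130) in NUP98-NSD1 and 4.86 (standard error 0.29, limma adjusted p = 9.46e-05) in NUP98-NSD1+NRASG12D cells. Against NUP98-NSD1 cells, the cells with both transgenes had 2.34 (standard error 0.28, limma adjusted p = 0.00816), with a limma adjusted p of 0.0507 when genes were not filtered. All 3 calls held when any library was left out. The macrophage and monocyte markers and the granulocyte markers took the same order of groups, as given above, and their part in the level of Atf3 was not tested.

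**Figure D3:**
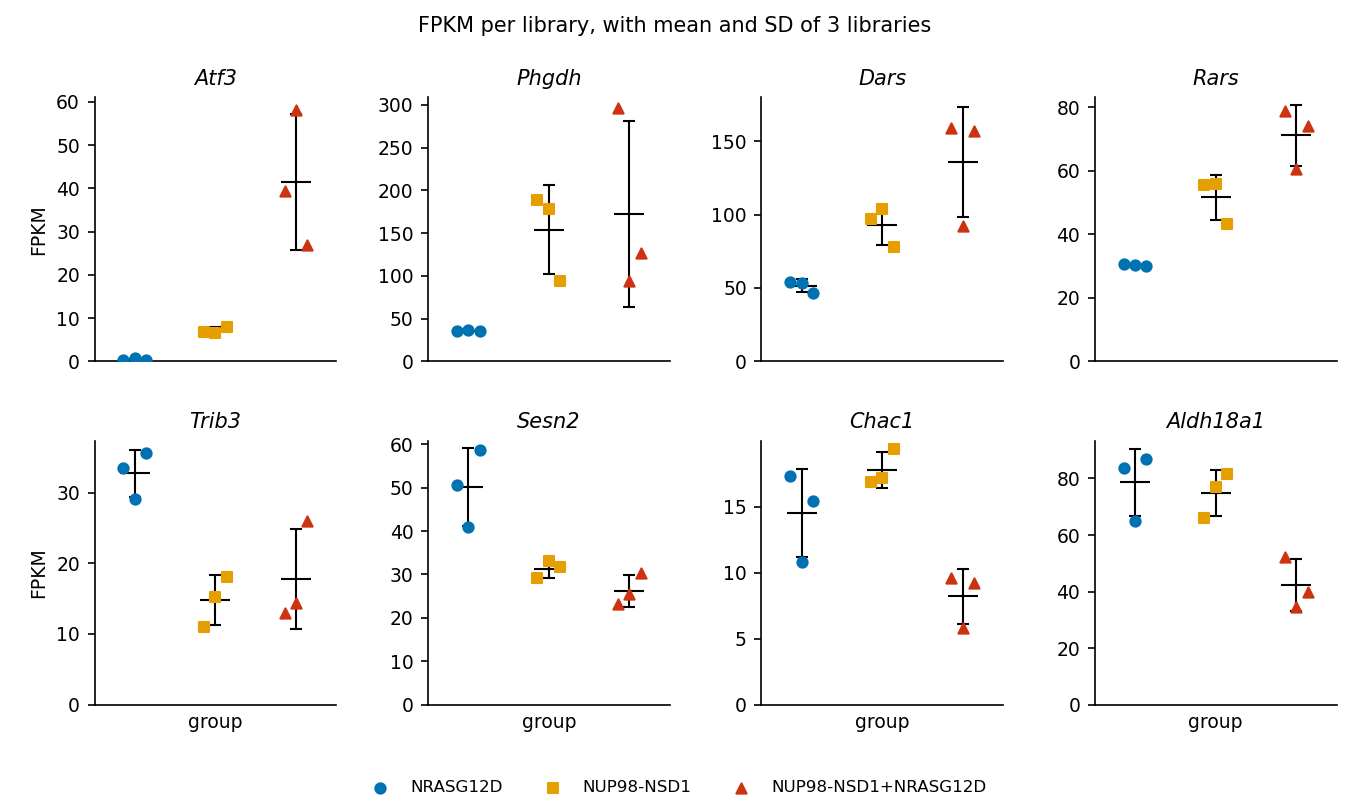
FPKM of 8 members in each library, with the mean and SD of 3 libraries as bars. Atf3 rises in steps over the groups, Dars, Rars, and Phgdh are low in NRASG12D cells, and Trib3 and Sesn2 are highest there, while Chac1 and Aldh18a1 are lowest in NUP98-NSD1+NRASG12D cells.

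The mRNA of Atf4 itself lay close together in the groups. Atf4 (ENSMUSG00000042406.8, chromosome 15 from 80255184 to 80257541) had 95.9, 88.2, and 90.0 FPKM in NRASG12D, 96.5, 95.4, and 83.02 FPKM in NUP98-NSD1, and 98.8, 63.3, and 68.7 FPKM in NUP98-NSD1+NRASG12D libraries. The groups overlapped. On the log2 scale the difference was 0.0017 in NUP98-NSD1 (95% interval -0.20 to 0.21) and -0.27 in NUP98-NSD1+NRASG12D cells (95% interval -0.73 to 0.19), with limma adjusted p-values of 0.989 and 0.296. Relative to the shift of all genes it was lower in both, at -0.33 and -0.51 after median-ratio scaling (limma adjusted p = 0.00940 and 0.0231). Atf5, a related factor that is also controlled at translation, had 5.61 to 8.34 FPKM in NRASG12D, 7.35 to 8.96 FPKM in NUP98-NSD1, and 8.71 to 17.0 FPKM in NUP98-NSD1+NRASG12D libraries. Neither comparison with NRASG12D cells passed (limma adjusted p = 0.210 and 0.0558).

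Ddit3, which encodes the stress factor CHOP, was lower in NUP98-NSD1 cells. It (ENSMUSG00000025408.15, chromosome 10 from 127290774 to 127296288) had 36.6, 37.2, and 35.1 FPKM in NRASG12D, 22.98, 23.8, and 27.2 FPKM in NUP98-NSD1, and 19.3, 47.6, and 38.8 FPKM in NUP98-NSD1+NRASG12D libraries. The NUP98-NSD1 libraries lay under all NRASG12D libraries, while those with both transgenes lay on either side of them. The log2 fold change was -0.54 (limma adjusted p = 0.00334) in NUP98-NSD1 and -0.13 (limma adjusted p = 0.756) in NUP98-NSD1+NRASG12D cells. With all 9 libraries in a single fit, the first call was lost (limma adjusted p = 0.164). Ddit3 overlaps Mars on the opposite strand, and whether counting used strand is not given in the sources used here. A second identifier of the same name, ENSMUSG00000116429.1, overlaps it on the same strand and was not used, as its mean was lower. Of the 50-base stretches of Ddit3, 4.38% also occur in other genes, the most in this second identifier.

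Trib3, Sesn2, and Chac1, the stress regulators of the list, were lower than in NRASG12D cells in each comparison with those cells that passed the test. Trib3 (ENSMUSG00000032715.9, chromosome 2 from 152337422 to 152344032, minus strand) encodes a pseudokinase that restrains ATF4 and CHOP. It had 33.5, 29.03, and 35.6 FPKM in NRASG12D, 11.01, 15.3, and 18.1 FPKM in NUP98-NSD1, and 13, 14.4, and 25.97 FPKM in NUP98-NSD1+NRASG12D libraries. All 3 NRASG12D libraries were above the other 6. On the log2 scale the difference was -1.11 (standard error 0.18, limma adjusted p = 0.00290) in NUP98-NSD1 cells, and held in every fit that left out a library. Where both transgenes were present, it was -0.90 (limma adjusted p = 0.0342). This second call was kept when NUP98-NSD1+NRASG12D replicate 3 was left out and lost without any of the other 5 libraries (limma adjusted p from 0.0710 to 0.118).

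Sesn2, which encodes a leucine-binding inhibitor of the kinase complex mTORC1, showed the same direction with fewer exceptions. Sesn2 (ENSMUSG00000028893.8, chromosome 4 from 132492032 to 132510501, minus strand) had 50.6, 40.9, and 58.7 FPKM in NRASG12D, 29.1, 33.1, and 31.7 FPKM in NUP98-NSD1, and 23.1, 25.4, and 30.3 FPKM in NUP98-NSD1+NRASG12D libraries. No NRASG12D library overlapped the others. The log2 fold changes were -0.65 (standard error 0.14, limma adjusted p = 0.00762) and -0.90 (standard error 0.19, limma adjusted p = 0.00986), and both passed under all other settings and without any single library. Chac1 (ENSMUSG00000027313.3, chromosome 2 from 119351229 to 119354381), for an enzyme that breaks down glutathione, had 17.3, 10.8, and 15.4 FPKM in NRASG12D, 16.9, 17.1, and 19.3 FPKM in NUP98-NSD1, and 9.61, 5.82, and 9.18 FPKM in NUP98-NSD1+NRASG12D libraries. The last group lay under all 6 other libraries. Chac1 did not pass in NUP98-NSD1 against NRASG12D cells (log2 fold change 0.30, limma adjusted p = 0.175). In the cells with both transgenes it was at -0.76 against NRASG12D (limma adjusted p = 0.0498) and at -1.05 against NUP98-NSD1 cells (limma adjusted p = 0.0301). Leaving out any library except NUP98-NSD1+NRASG12D replicate 1 ended the first of these calls (limma adjusted p from 0.0505 to 0.166), and leaving out any NUP98-NSD1 library or NUP98-NSD1+NRASG12D replicate 3 ended the second (limma adjusted p from 0.0638 to 0.128).

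**Figure D4:**
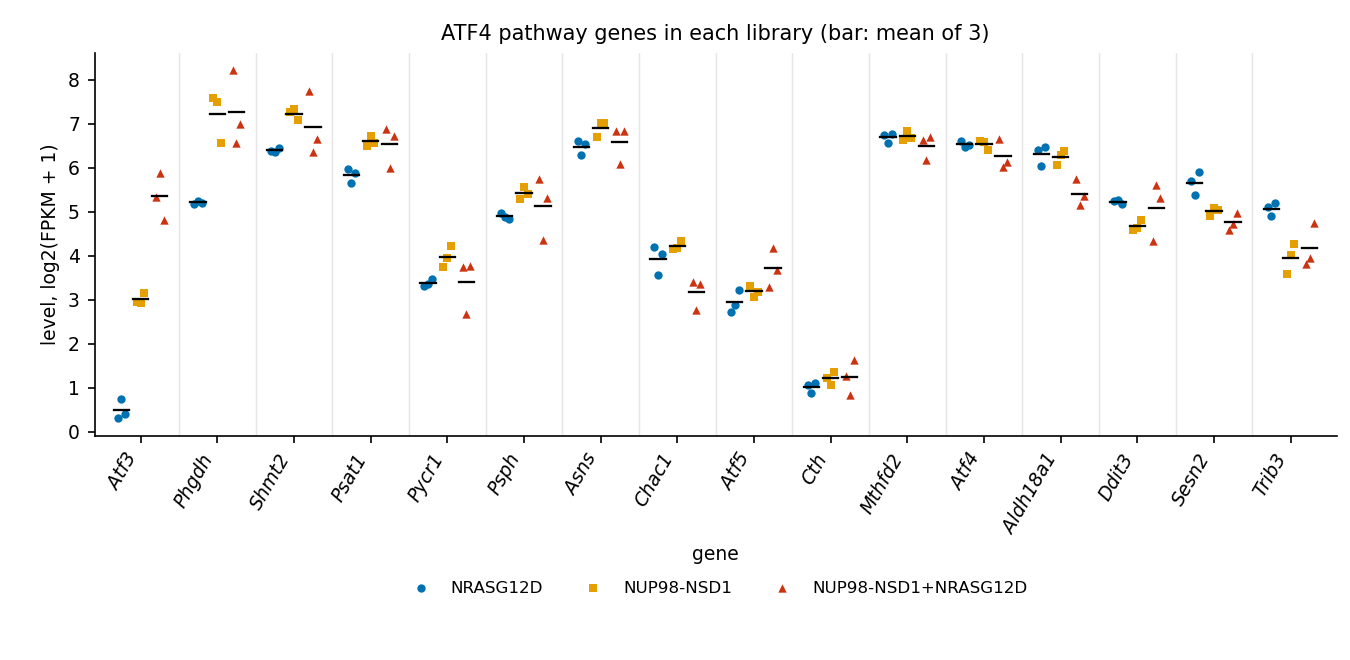
Level of the 16 other members in the 9 libraries as log2(FPKM + 1), ordered by their difference between NUP98-NSD1 and NRASG12D cells, with bars at the mean of 3 libraries. Atf3 and Phgdh stand apart at the left and Ddit3, Sesn2, and Trib3 at the right, while Cth stayed near 1 FPKM, from 0.78 to 2.11 FPKM.

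The enzymes of serine synthesis and of the folate cycle in mitochondria were mostly higher in NUP98-NSD1 cells. Phgdh (ENSMUSG00000053398.11, chromosome 3 from 98313170 to 98339990, minus strand), whose enzyme starts serine synthesis from glucose, had 35.3, 36.8, and 35.8 FPKM in NRASG12D, 189, 179, and 94.0 FPKM in NUP98-NSD1, and 296, 93.7, and 127 FPKM in NUP98-NSD1+NRASG12D libraries. All 6 libraries with NUP98-NSD1 were far above the narrow range of NRASG12D cells, and they overlapped each other. The ratio of mean FPKM was 4.28 in NUP98-NSD1 and 4.78 in NUP98-NSD1+NRASG12D cells, with log2 fold changes of 2.00 (standard error 0.25, limma adjusted p = 0.00141) and 2.05 (standard error 0.39, limma adjusted p = 0.00718). Both held when any library was left out and under all other settings. Of the 50-base stretches of Phgdh, 47.8% also occur in other genes, the most in Gm7901, so its values are uncertain. Gm7901 had 6.75 to 7.21 FPKM in NRASG12D, 17.8 to 36.6 FPKM in NUP98-NSD1, and 18.2 to 59.2 FPKM in NUP98-NSD1+NRASG12D libraries, the same order of groups as Phgdh.

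Psat1 and Psph complete the serine pathway. Psat1 (ENSMUSG00000024640.9, chromosome 19 from 15904678 to 15947337, minus strand), the aminotransferase, had 61.6, 49.3, and 57.9 FPKM in NRASG12D, 89.5, 105, and 93.2 FPKM in NUP98-NSD1, and 116, 63.1, and 105 FPKM in NUP98-NSD1+NRASG12D libraries. It was higher in NUP98-NSD1 cells (log2 fold change 0.76, limma adjusted p = 0.00214), also after median-ratio scaling (0.43, limma adjusted p = 0.0241). Where both transgenes were present, its value of 0.70 did not pass (limma adjusted p = 0.0623). Psph, the phosphatase of the last step, had 27.7 to 30.2 FPKM in NRASG12D, 37.96 to 46.2 FPKM in NUP98-NSD1, and 52.3, 19.6, and 38.8 FPKM in NUP98-NSD1+NRASG12D libraries. It was higher in NUP98-NSD1 cells by 0.52 (limma adjusted p = 0.00467), but not after median-ratio scaling (0.19, limma adjusted p = 0.131). It overlaps Cct6a on the opposite strand, and 8.82% of its 50-base stretches also occur in other genes, the most in Cct6a. Cct6a was more abundant, with 113 to 138 FPKM in NRASG12D and 188 to 247 FPKM in NUP98-NSD1 libraries. It had 351, 181, and 215 FPKM in NUP98-NSD1+NRASG12D libraries, and its part in the values of Psph was not tested.

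Shmt2, which moves a carbon unit from serine to folate in mitochondria, had 81.9, 81.5, and 85.5 FPKM in NRASG12D, 152, 160, and 134 FPKM in NUP98-NSD1, and 213, 80.7, and 99.2 FPKM in NUP98-NSD1+NRASG12D libraries. It was higher in NUP98-NSD1 cells, by 0.83 on the log2 scale (standard error 0.088, limma adjusted p = 0.000884), also after median-ratio scaling (0.50, limma adjusted p = 0.00245), though not with all 9 libraries in a single fit (limma adjusted p = 0.0734). NUP98-NSD1+NRASG12D cells overlapped the NRASG12D range and did not pass (0.52, limma adjusted p = 0.258). Mthfd2, which acts on the folate product of Shmt2, did not pass the test with the deposited values. Mthfd2 had 92.7 to 107 FPKM in NRASG12D, 98.5 to 113 FPKM in NUP98-NSD1, and 70.7 to 102 FPKM in NUP98-NSD1+NRASG12D libraries, and NUP98-NSD1 cells had a log2 fold change of 0.027 (limma adjusted p = 0.825), or -0.31 after median-ratio scaling (limma adjusted p = 0.0464). Within each library, Phgdh over Mthfd2 was 0.33, 0.40, and 0.33 in NRASG12D, 1.92, 1.59, and 0.93 in NUP98-NSD1, and 3.03, 1.32, and 1.24 in NUP98-NSD1+NRASG12D cells, a ratio also chosen after the values were seen. Asns, which makes asparagine, had 76.7 to 95.7 FPKM in NRASG12D, 103 to 128 FPKM in NUP98-NSD1, and 66.8 to 114 FPKM in NUP98-NSD1+NRASG12D libraries. Its call in NUP98-NSD1 cells (log2 fold change 0.44, limma adjusted p = 0.0240) was lost after median-ratio scaling (0.10, limma adjusted p = 0.6) and without NRASG12D replicate 2 or 3 or NUP98-NSD1 replicate 2 or 3 (limma adjusted p from 0.0513 to 0.0873). Cth, for the last enzyme of cysteine synthesis, did not pass in any comparison.

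The proline enzymes Aldh18a1 and Pycr1, which act at the start and the end of proline synthesis from glutamate, took different courses. Aldh18a1 (ENSMUSG00000025007.13, chromosome 19 from 40550257 to 40588463, minus strand) had 83.9, 65.0, and 87.0 FPKM in NRASG12D, 65.9, 77.1, and 81.7 FPKM in NUP98-NSD1, and 52.3, 34.4, and 40.0 FPKM in NUP98-NSD1+NRASG12D libraries. The cells with both transgenes were lower than all 6 other libraries. The log2 fold change was -0.89 against NRASG12D (standard error 0.20, limma adjusted p = 0.0146) and -0.83 against NUP98-NSD1 cells (standard error 0.20, limma adjusted p = 0.0481). The first call was lost without NRASG12D replicate 1 or 3 (limma adjusted p = 0.0642 and 0.0672), and the second was kept only when NUP98-NSD1+NRASG12D replicate 1 was left out (limma adjusted p from 0.0840 to 0.177 without any other library). Pycr1 had 8.89 to 10.2 FPKM in NRASG12D, 12.3 to 17.5 FPKM in NUP98-NSD1, and 12.5, 5.398, and 12.5 FPKM in NUP98-NSD1+NRASG12D libraries. It was higher in NUP98-NSD1 cells by 0.58 (limma adjusted p = 0.0109), which was 0.27 and no longer passed after median-ratio scaling (limma adjusted p = 0.209).

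The 16 members other than synthetases were also counted as a list. In NUP98-NSD1 against NRASG12D cells, 7 were higher (43.8%, against 42.2% of all tested genes) and 3 lower (18.8%, against 9.98%), the lower ones being Ddit3, Trib3, and Sesn2. After median-ratio scaling 4 were higher, Atf3, Phgdh, Psat1, and Shmt2, and 5 were lower, with Atf4 and Mthfd2 added, against 22.7% and 23.3% of all genes. In the cells with both transgenes Atf3 and Phgdh were higher and 4 genes lower, which were Chac1, Trib3, Sesn2, and Aldh18a1. The shares of 12.5% and 25% stand against 24.2% and 14.1% of all tested genes. The mean log2(FPKM + 1) of the 16 genes was 4.75 ± 0.087 (SD, n = 3) in NRASG12D, 5.13 ± 0.056 (SD, n = 3) in NUP98-NSD1, and 5.09 ± 0.23 (SD, n = 3) in NUP98-NSD1+NRASG12D cells, a mean over genes that differed in opposite directions.

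**Figure D5:**
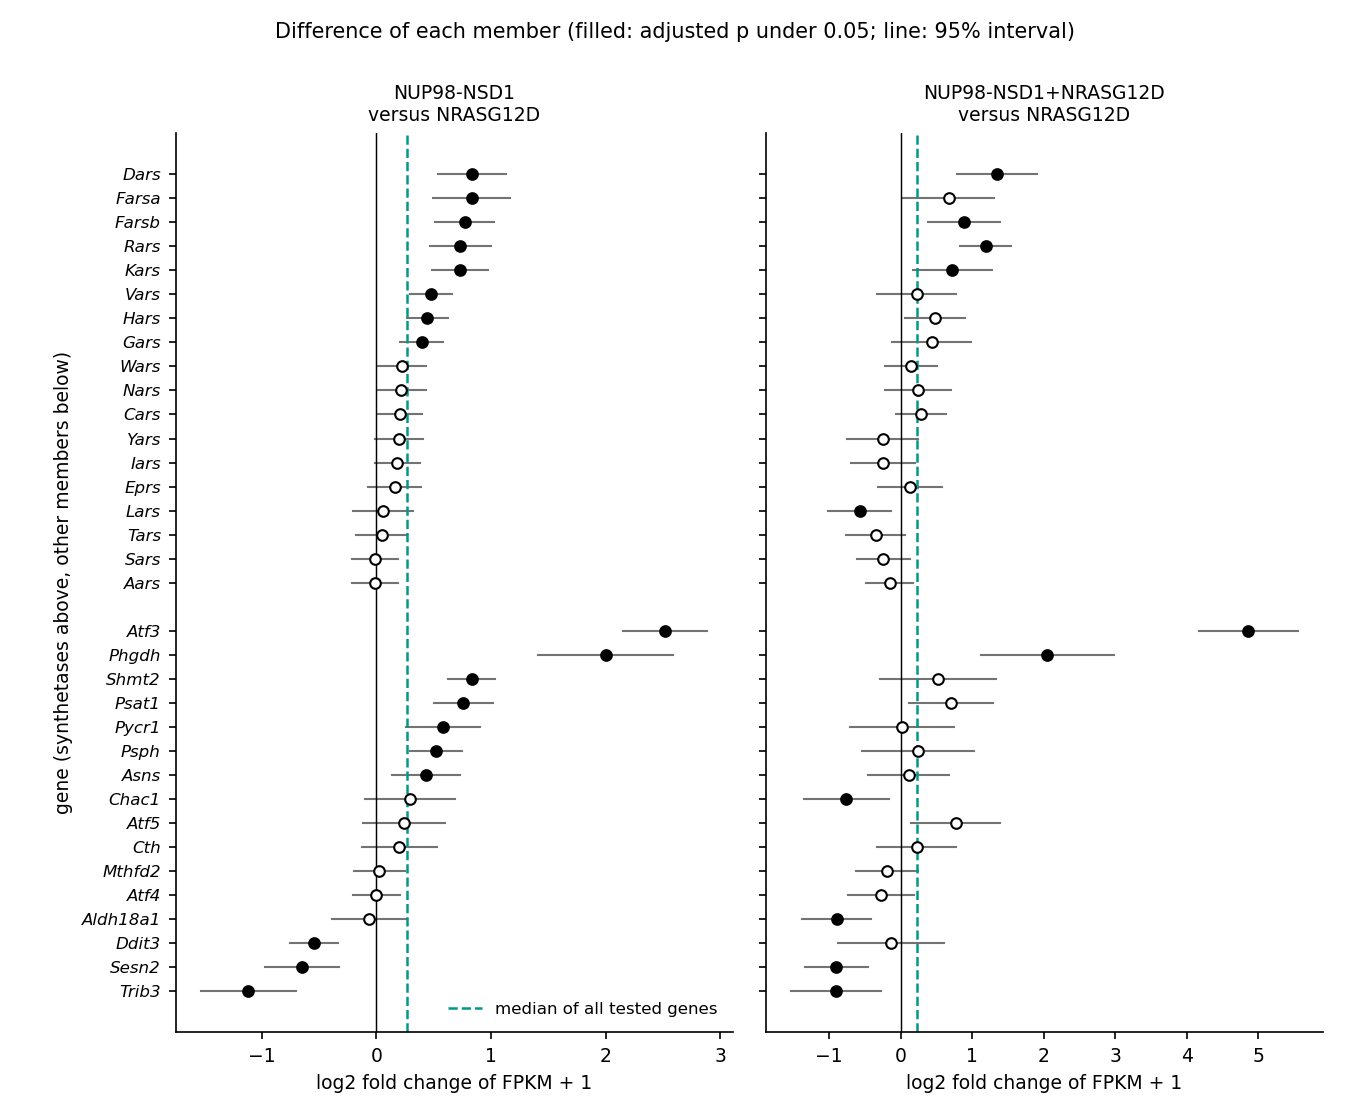
Log2 fold change of FPKM + 1 of each member in both comparisons with NRASG12D cells, with 95% intervals from limma. The horizontal scales of the panels differ, filled points passed an adjusted p of 0.05, and the dashed line marks the median of all tested genes (0.27 on the left, 0.23 on the right), on both sides of which the members lay.

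Few members passed the test when cells with both transgenes were compared with NUP98-NSD1 cells, a comparison that shares libraries with both others. Over all tested genes, 2.3% were called higher and 6.31% lower in the cells with both transgenes. None of the 18 synthetase genes passed in limma, although the unadjusted p was under 0.05 for 2 of them. These were Lars at -0.63 (95% interval -1.12 to -0.14, limma adjusted p = 0.113) and Rars at 0.46 (95% interval 0.03 to 0.88, limma adjusted p = 0.173). Among the other members, Atf3 was higher and Chac1 and Aldh18a1 were lower, as given above. For Phgdh the 95% interval of the difference ran from -1.06 to 1.16, which does not exclude a difference of a log2 unit in either direction. The spread among the NUP98-NSD1+NRASG12D libraries was wide. The coefficient of variation of FPKM had a median of 23.03% over the synthetase genes, against 5.65% in NRASG12D and 6.44% in NUP98-NSD1 cells. Replicate 1 had the highest value of its group in 16 of 18 synthetase genes, and replicate 2 the lowest in 14. After median-ratio scaling these counts were 10 and 11. Replicate 1 also had the highest sum of 14 proliferation markers, 1974 FPKM, and replicate 2 the lowest, 1130 FPKM.

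Around the members, the genes that control eIF2 were read next. Of 15 tested genes for the eIF2 kinases, eIF2, its exchange factor eIF2B, and the phosphatase subunits, 9 were higher and 0 lower in NUP98-NSD1 cells when set against NRASG12D cells, and 3 were higher and 1 lower in cells with both transgenes. Among all tested genes 42.2% were called higher and 9.98% lower in the first comparison and 24.2% and 14.1% in the second. After median-ratio scaling 4 were higher and 1 lower in NUP98-NSD1 cells, against 22.7% and 23.3% of all genes. In cells with both transgenes 2 were then higher and 2 lower, against 19.8% and 19.1% of all genes. Eif2b5, Eif2b4, and Eif2b3, subunits of the exchange factor, had the largest log2 fold changes in NUP98-NSD1 cells, at 0.96, 0.87, and 0.67 (limma adjusted p = 0.00580, 0.00443, and 0.00196). Ppp1r15a, the stress-induced subunit that directs eIF2 dephosphorylation and is itself raised downstream of ATF4, had 68.9 to 82.3 FPKM in NRASG12D, 91.1 to 122 FPKM in NUP98-NSD1, and 25.8, 18.4, and 26.4 FPKM in NUP98-NSD1+NRASG12D libraries. Where both transgenes were present, it was lower than in NRASG12D and NUP98-NSD1 cells, with log2 fold changes of -1.68 and -2.10 (limma adjusted p = 0.000698 and 0.00556).

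Of 17 further genes linked to ATF4, 14 were tested. In NUP98-NSD1 cells 9 were higher and 0 lower, with 42.2% and 9.98% of all genes called, and 3 were higher and 2 lower after median-ratio scaling, with 22.7% and 23.3% of all genes called. In the cells with both transgenes 6 were higher and 1 lower (24.2% and 14.1% of all genes), and 5 and 2 after median-ratio scaling (19.8% and 19.1%). Bcat1, which acts on branched-chain amino acids, had 0.13 to 0.62 FPKM in NRASG12D libraries, 2.03 to 4.52 FPKM in NUP98-NSD1 and 4.89 to 13.8 FPKM in NUP98-NSD1+NRASG12D libraries, and was higher than in NRASG12D cells by 1.70 and 2.59 on the log2 scale (limma adjusted p = 0.00272 and 0.00205). Stc2, a secreted stress protein, and Cebpb, a partner of ATF4, were higher in the cells with both transgenes by 2.38 and 1.64 (limma adjusted p = 0.00591 and 0.000535). Ddit4, an inhibitor of mTORC1, had 72.1 to 81.6 FPKM in NUP98-NSD1 and 22.99, 23.02, and 49.5 FPKM in NUP98-NSD1+NRASG12D libraries, with a log2 fold change of -1.34 between them (limma adjusted p = 0.0424). This call held in 1 of 6 fits that left out a library and was lost after median-ratio scaling (limma adjusted p = 0.0797).

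Of 10 amino acid transporter genes linked to ATF4, 9 were found and 8 tested. In NUP98-NSD1 cells 2 were higher and 2 lower, and in NUP98-NSD1+NRASG12D cells 1 was higher and 2 lower, beside the same shares of all genes. After median-ratio scaling, 1 was higher and 4 lower in NUP98-NSD1 cells, against 22.7% and 23.3% of all genes. In the cells with both transgenes 0 were then higher and 3 lower, against 19.8% and 19.1% of all genes. Slc6a9, the glycine transporter, had 44.8 to 58.7 FPKM in NRASG12D, 17.8 to 31.5 FPKM in NUP98-NSD1, and 2.79 to 3.51 FPKM in NUP98-NSD1+NRASG12D libraries, with log2 fold changes of -1.12 and -3.62 against NRASG12D cells (limma adjusted p = 0.00498 and 4.24e-05). Slc3a2, the chain shared by several amino acid exchangers, had 498 to 528, 313 to 393, and 160 to 223 FPKM in the same order, with log2 fold changes of -0.59 and -1.44 (limma adjusted p = 0.00454 and 0.00115). The groups did not overlap in either gene. Slc7a11, the cystine transporter that pairs with Slc3a2, took the opposite direction where both transgenes were present (log2 fold change 1.845, limma adjusted p = 0.0261), with 3.15, 10.3, and 16.8 FPKM against 1.27 to 1.85 FPKM in NRASG12D libraries. The Slc7a11 call held in 1 of 6 fits that left out a library and was lost after median-ratio scaling (limma adjusted p = 0.0510).

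Chaperones and markers of cell division were counted as neighbors of the pathway. Of 15 genes of the ATF6 and XBP1 arms of the unfolded protein response, 10 were higher and 0 lower in NUP98-NSD1 cells, where 42.2% of all genes were called higher, led by Pdia6, Calr, and Manf at 0.72, 0.67, and 0.64 (limma adjusted p = 0.00268, 0.00582, and 0.00711). These chaperones and folding enzymes serve the endoplasmic reticulum. After median-ratio scaling 6 were higher and 2 lower, with 22.7% and 23.3% of all genes called. Where both transgenes were present, 8 were higher and 1 lower (24.2% and 14.1% of all genes), the lower one being Herpud1, which serves the removal of misfolded proteins, at -1.07 (limma adjusted p = 0.00667). Of 14 proliferation genes, 13 were higher and 0 lower in NUP98-NSD1 cells, where 42.2% and 9.98% of all genes were called. Their median was 0.95. In cells with both transgenes 10 were higher and 0 lower (24.2% and 14.1% of all genes), with a median of 0.96. After median-ratio scaling 11 were higher and 0 lower in the first comparison, against 22.7% and 23.3% of all genes. In the second, 10 were then higher and 0 lower, against 19.8% and 19.1%. Mcm5 and Mcm7, subunits of the replicative helicase, were higher in NUP98-NSD1 cells by 1.30 and 1.16 (limma adjusted p = 0.000531 and 0.000370). The summed level of the 14 genes was 638 to 850 FPKM in NRASG12D, 1418 to 1495 FPKM in NUP98-NSD1, and 1130 to 1974 FPKM in NUP98-NSD1+NRASG12D libraries, the direction in which Dars, Rars, Kars, Farsa, and Farsb also lay, and its part in their levels was not tested.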

How the data were processed

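RNA-seq was performed on 9 libraries of mouse bone marrow cultures, 3 per group. Per the submitters' processing notes and the study's methods, 50-bp paired-end reads were aligned with STAR 2.7.2a to GRCm38.p6 and quantified with Cufflinks 2.2.1, and the authors deposited the result as gene-level FPKM (fragments per kilobase of transcript scaled by the library's fragments), 1 table per library. Whether strand was used is not given in the sources used here. The deposited FPKM scale each library to its own fragments, so a few very abundant transcripts can move all other genes. The authors' own test was DESeq2 on counts. Counts were not used here, and limma was run on FPKM instead. Depth was estimated from the steps between low FPKM values of 3386 single-transcript genes, and covers counting error only.

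A gene was tested if at least 3 libraries reached an FPKM of 1, which left 13493 genes, analyzed as log2(FPKM + 1) with limma 3.58.1 in R 4.3.3 (linear model, empirical Bayes with trend), on the 6 libraries of each comparison, adjusting p by Benjamini-Hochberg across the tested genes with a threshold of 0.05. Intervals are 95% intervals of the same fits. Alternatives were a pseudocount of 0.1, no filter, median-ratio scaling, quantile normalization, all 9 libraries in a single fit, array weights, the replicate number as a block, and leaving out each library. On simulated data with the same spread in both groups, known changes were put into a small part of 13493 genes. A log2 change of 1 was found for 72% of the changed genes for NUP98-NSD1 against NRASG12D. For NUP98-NSD1+NRASG12D it was found for 36% against NRASG12D and 21% against NUP98-NSD1. A change of 2 was found for 92%, 76%, and 71% in the same order. Of the calls on these data, 5.2%, 5.88%, and 4.17% were false. Whether these rates hold for the 9 libraries was not tested. Their groups differed in spread, and far more genes were called in each comparison than were changed in the simulation.

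Every member could be named. Of each other list, at most 3 genes with the largest absolute log2 fold change among those past the threshold in a comparison were named, besides Nras, cell type markers, the composition of a list, and genes that share sequence with a member. The members and lists were chosen with earlier results of these data known. Sequences shared between genes were counted as identical stretches of 50 bases of annotated transcripts. Promoters were taken from RefSeq on GRCm38.p6. Tables were handled with Python 3.11.15, pandas 2.3.3, numpy 2.4.6, and scipy 1.17.1, and figures drawn with matplotlib 3.10.9. An item among the results of these lists is not reported here.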

Additional observations from a re-analysis of the deposited data

How the results depend on the processing

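Of the members called with the deposited values, none changed sign under the 7 alternative settings. In NUP98-NSD1 against NRASG12D cells, 17 of 18 calls held in all 6 fits that left out a library and 10 of 18 under all 7 settings. In NUP98-NSD1+NRASG12D against NRASG12D cells these were 5 and 6 of 11 calls, and against NUP98-NSD1 cells 1 and 0 of 3. The spread among NUP98-NSD1+NRASG12D libraries and 3 libraries per group limit what could be called, and FPKM carry no counts. The cause of the changes below was not tested.

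For NUP98-NSD1 against NRASG12D, the number of synthetase genes called was 8, and became 5 with all 9 libraries in a single fit and 13 with array weights, while the number of other members called went from 10 to 5 in the single fit. For NUP98-NSD1+NRASG12D against NRASG12D, 5 synthetase genes became 2 with no filter, 9 with quantile normalization, and 2 to 9 when a library was left out. The 5 were 4 higher and 1 lower, while the 9 with quantile normalization were 3 higher and 6 lower. In the same comparison, 6 other members became 3 to 7 when a library was left out. For NUP98-NSD1+NRASG12D against NUP98-NSD1, 0 synthetase genes became 1 in the single fit, 4 with array weights, and 0 to 4 when a library was left out, and 3 other members became 0 with no filter, 5 with array weights, and 1 to 5 when a library was left out.

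The replicate numbers were not shown to pair libraries, since same-numbered libraries had correlations of deviations from -0.177 to 0.160 and did not all correlate best with their own number. With the replicate block, calls in NUP98-NSD1 against NRASG12D cells were the same. In NUP98-NSD1+NRASG12D against NRASG12D cells, 3 synthetase genes were called with the replicate block, without Kars and Lars, and Psat1 was called (limma adjusted p = 0.0450). Against NUP98-NSD1 cells, 1 other member was called with the block.

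The difference in mean log2 level between NUP98-NSD1 and NRASG12D cells went from 0.36 to 0.029 with median-ratio scaling and 0.057 with quantile normalization for synthetase genes, and from 0.38 to 0.48 with a pseudocount of 0.1, 0.070 with median-ratio scaling, and 0.052 with quantile normalization for the other members. For NUP98-NSD1+NRASG12D against NRASG12D cells, quantile normalization moved it from 0.275 to -0.053 for synthetase genes and from 0.34 to 0.026 for the other members. Members that were not called changed sign as follows.

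By median ratios, for NUP98-NSD1 against NRASG12D, Cars at -0.12, Eprs at -0.17, Iars at -0.15, Lars at -0.27, Nars at -0.12, Tars at -0.29, Wars at -0.11, Yars at -0.13, Atf4 at -0.33, Atf5 at -0.054, Chac1 at -0.022 and Mthfd2 at -0.31 changed sign. By median ratios, for NUP98-NSD1+NRASG12D against NRASG12D, Eprs at -0.10, Vars at -0.0093, Wars at -0.093, Asns at -0.12 and Pycr1 at -0.20 changed sign. By median ratios, for NUP98-NSD1+NRASG12D against NUP98-NSD1, Eprs at 0.067, Kars at 0.089, Wars at 0.017 and Psat1 at 0.035 changed sign. With quantile normalization, for NUP98-NSD1 against NRASG12D, Cars at -0.10, Eprs at -0.14, Iars at -0.12, Lars at -0.26, Nars at -0.051, Tars at -0.26, Wars at -0.091, Yars at -0.11, Atf4 at -0.31, Atf5 at -0.082, Chac1 at -0.020, Mthfd2 at -0.28 and Cth at -0.26 changed sign. With quantile normalization, for NUP98-NSD1+NRASG12D against NRASG12D, Cars at -0.022, Eprs at -0.19, Nars at -0.12, Vars at -0.12, Wars at -0.16, Asns at -0.25, Psph at -0.067, Cth at -0.034 and Pycr1 at -0.26 changed sign. With quantile normalization, for NUP98-NSD1+NRASG12D against NUP98-NSD1, Gars at -0.028, Nars at -0.066 and Phgdh at -0.026 changed sign. With array weights, for NUP98-NSD1 against NRASG12D, Lars at -0.023 changed sign. With array weights, for NUP98-NSD1+NRASG12D against NRASG12D, Eprs at -0.021 and Ddit3 at 0.049 changed sign. With array weights, for NUP98-NSD1+NRASG12D against NUP98-NSD1, Farsb at -0.081, Hars at -0.0035, Nars at -0.062 and Phgdh at -0.41 changed sign.

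Leaving out each library in turn for NUP98-NSD1 against NRASG12D, the log2 fold change ranged for Aars from -0.061 to 0.040, Lars from -0.047 to 0.14, Sars from -0.059 to 0.040, Tars from -0.039 to 0.11, Atf4 from -0.036 to 0.071, Mthfd2 from -0.041 to 0.065 and Aldh18a1 from -0.19 to 0.025, through 0. Leaving out each library in turn for NUP98-NSD1+NRASG12D against NRASG12D, the log2 fold change ranged for Eprs from -0.055 to 0.25, Vars from -0.020 to 0.42, Ddit3 from -0.39 to 0.24, Asns from -0.013 to 0.37, Psph from -0.057 to 0.63 and Pycr1 from -0.17 to 0.37, through 0. Leaving out each library in turn for NUP98-NSD1+NRASG12D against NUP98-NSD1, the log2 fold change ranged for Eprs from -0.22 to 0.093, Farsa from -0.47 to 0.010, Farsb from -0.11 to 0.27, Gars from -0.12 to 0.29, Hars from -0.097 to 0.20, Kars from -0.26 to 0.17, Nars from -0.13 to 0.17, Wars from -0.15 to 0.027, Trib3 from -0.081 to 0.39, Psat1 from -0.23 to 0.20, Phgdh from -0.43 to 0.40, Psph from -0.58 to 0.11 and Cth from -0.17 to 0.23, through 0.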
